A study of Mus musculus with 8 samples.

Results

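Lipid uptake genes were followed in mouse induced cardiomyocytes, where Cd36 and Apoe mRNA were much lower in cells carrying a hairpin against Grhl3. The group consists of 10 named genes, Cd36, Apoe, Lpl, Plin2, Fabp3, Fabp4, Fabp5, Msr1, Abca1 and Trem2, picked by symbol out of 53921 rows that name a gene in the deposited count table. Each symbol matched 1 row. The group was put together with the lower Cd36 and Apoe of this same contrast already known, so the differences of the 10 genes are given as a description and carry no test.

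Induced cardiomyocytes are fibroblasts pushed towards a heart muscle identity by added transcription factors. Every library comes from cells given MGT (the reprogramming factors Mef2c, Gata4 and Tbx5) and a hairpin delivered by lentivirus, either shNT, taken here as the control, or shGrhl3, and are labelled day 5. RNA-seq was done on 2 shNT and 2 shGrhl3 libraries. The source is tagged Neo in the labels without explanation, and neither animal age and strain nor separate cultures for the 2 libraries of a group are stated, so p-values speak of the spread among these libraries alone, possibly technical. The total count per library lay between 16104243 and 19823397, and the ribosomal Rn18s row took 0.573% and 2.00% of the shNT counts against 0.0959% and 0.156% of the shGrhl3 counts. Grhl3 itself had 31 and 14 counts in shNT and 11 and 19 in shGrhl3, with overlapping libraries (log2 fold change -0.72, SE 0.53, adjusted p = 0.311), so a lower level of the targeted mRNA was not detectable at this depth. The table columns read as shGrhl3 are named shGrhl1 and shGrhl2, read here as replicates 1 and 2, since Grhl3 is the one target in the labels. Of 12 cardiomyocyte markers tested, 6 were higher in shGrhl3, 1 was lower and 5 did not pass. Myh6, the alpha myosin heavy chain, rose from 20.6 ± 0.284 to 251 ± 14.0 CPM (SD, n = 2, where CPM are counts scaled by TMM to a common library size), while Tnnt2, cardiac troponin T, averaged 3214 ± 112 CPM for shNT against 3208 ± 146 CPM for shGrhl3. Myh7 rose but stayed below 5 CPM, as did Pln, which did not pass. Of 10 cardiac fibroblast markers tested, 2 were higher, 5 lower and 3 did not pass. Beside both lists, 17.2% of all 15324 tested genes were higher and 18.1% lower at an adjusted p of 0.05. Col1a1 rose from 4201 ± 58.5 to 6084 ± 589 CPM, whereas Pdgfra fell from 93.5 ± 19.4 to 42.3 ± 2.74 CPM and Tcf21 from 300.3 ± 18.9 to 184 ± 24.5 CPM. Markers of both cell types were thus present in both groups, and their shifts accompany the values below; their part in those was not tested. These marker genes were picked with their values in view.

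Heart muscle burns mainly fatty acids. Lipoprotein lipase, the product of Lpl, frees them from circulating triglycerides, CD36 helps them across the plasma membrane, fatty acid binding proteins carry them through the cytosol, and perilipin 2 coats the droplets in which the surplus is stored. Macrophages use an overlapping set: CD36 and the scavenger receptor MSR1 take up modified lipoproteins, TREM2 senses lipids and lipoproteins, and ABCA1 and apolipoprotein E carry cholesterol out of the cell.

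The sequence just upstream of a transcript start is where many regulatory factors bind. Promoter windows from RefSeq (GRCm38.p6, the assembly behind mm10) were found for 6 of the 10 genes, in 8 windows, since Apoe has 3. The windows run from 250 bases before to 50 after an annotated transcript start. The Cd36 window and the 3 Apoe windows lie at starts inside the gene spans given below. The upstream ends of those spans (17888959 for Cd36, 19701310 for Apoe) were not searched. The Plin2 and Abca1 windows also lie at starts inside the gene spans, but they include the upstream ends (86670217 and 53159988). Shown are the 250 bases upstream for Cd36 and Apoe, which had strongly lower mRNA, Trem2, which was also lower, Plin2, which was higher, and Abca1, the one window with the core of the Grainyhead motif, the family to which Grhl3 belongs. Cd36 is chr5:17835897-17836146 on the minus strand, Apoe (its most upstream window) chr7:19699189-19699438, minus, Trem2 chr17:48346151-48346400, plus, Plin2 chr4:86670060-86670309, minus, and Abca1 chr4:53159896-53160145, minus. Capitals mark every match, on either strand, to the motifs searched.
Cd36: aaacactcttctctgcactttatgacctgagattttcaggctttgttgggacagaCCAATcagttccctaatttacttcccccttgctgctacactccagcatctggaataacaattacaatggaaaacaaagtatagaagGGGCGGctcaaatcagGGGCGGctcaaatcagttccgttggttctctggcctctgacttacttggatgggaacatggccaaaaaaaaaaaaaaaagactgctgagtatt
Apoe: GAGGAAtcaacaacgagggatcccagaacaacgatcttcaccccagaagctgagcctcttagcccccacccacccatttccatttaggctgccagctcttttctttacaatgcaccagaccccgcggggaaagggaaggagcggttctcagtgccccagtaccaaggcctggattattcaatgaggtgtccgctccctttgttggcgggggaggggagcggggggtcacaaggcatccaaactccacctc
Trem2: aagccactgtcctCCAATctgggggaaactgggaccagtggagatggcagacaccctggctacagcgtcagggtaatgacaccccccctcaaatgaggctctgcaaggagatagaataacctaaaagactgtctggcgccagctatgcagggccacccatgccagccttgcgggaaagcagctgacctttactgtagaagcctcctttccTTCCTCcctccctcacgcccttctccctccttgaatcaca
Plin2: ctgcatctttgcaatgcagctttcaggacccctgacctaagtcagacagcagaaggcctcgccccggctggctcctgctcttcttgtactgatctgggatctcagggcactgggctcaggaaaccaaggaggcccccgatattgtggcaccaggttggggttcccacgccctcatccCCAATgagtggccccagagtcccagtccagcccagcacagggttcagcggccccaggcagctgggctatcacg
Abca1: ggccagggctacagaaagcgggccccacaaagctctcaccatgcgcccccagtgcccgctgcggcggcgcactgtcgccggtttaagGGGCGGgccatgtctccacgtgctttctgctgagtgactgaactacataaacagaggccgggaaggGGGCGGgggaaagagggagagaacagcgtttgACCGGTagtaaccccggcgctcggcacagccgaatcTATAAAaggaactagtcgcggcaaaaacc

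The Cd36 window holds a CCAAT box (CCAAT) and 2 GC boxes (GGGCGG). The first motif is found in 37.4% and the other in 35.7% of 32851 promoter windows of the same length. PU.1 is the master factor of myeloid cells, and its core GAGGAA occurred in the Trem2 window and in Apoe windows 1 and 3, against 28.3% of all windows. The Cd36 window had no match to GAGGAA. The Grainyhead core ACCGGT, found in 2.33% of windows, occurred once, in the Abca1 window, which also has 2 GC boxes and a TATA box (TATAAA, 13.6% of windows). No member window matched the full Grainyhead motif AACCGGTT (0.146% of windows), the direct repeat bound by PPAR with RXR (2 copies of AGGTCA with 1 base between, 0.0396%), that bound by LXR with RXR (the same copies with 4 bases between, 0.0152%) or the MEF2 motif (0.164%). The 2 TATAAA matches of Apoe window 2 overlap each other on opposite strands, and the palindromic ACCGGT lies inside AACCGGTT. These are matches of letters only, and absence of a match concerns only these letters in these windows.

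**Figure D1:**
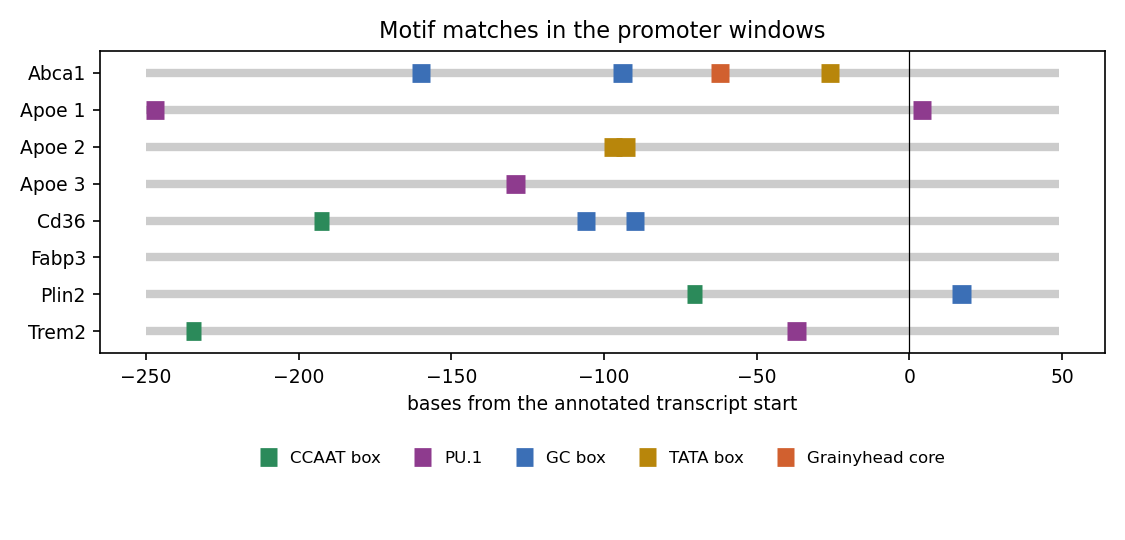
Motif matches along the 8 promoter windows of 6 genes, with the x axis in bases from the annotated transcript start (0) and coloured blocks for matches on either strand (windows of Apoe numbered from the most upstream). PU.1 matches lie in Trem2 and in Apoe windows 1 and 3, the single Grainyhead core lies in Abca1, and Fabp3 has no match.

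The receptors that bring lipid into the cell were the most reduced. Cd36, the fatty acid and modified lipoprotein receptor (chromosome 5, 17781690 to 17888959, GRCm38.p6), stood at 59.8 and 85.0 CPM in the shNT libraries and at 2.39 and 1.66 CPM in the shGrhl3 libraries. Both shNT libraries were far above both shGrhl3 libraries. Its level was 35.3-fold lower in shGrhl3 (log2 fold change -5.14, SE 0.22), the sixth-lowest change among 15324 genes tested. Msr1, the class A macrophage scavenger receptor (chromosome 8, 39543232 to 39642750), had 157 and 219 counts in shNT and 4 and 6 counts in shGrhl3. The exact Poisson 95% intervals of the low counts, which cover counting error only, were 1.09 to 10.2 and 2.2 to 13.1. Its log2 fold change of -5.35 (SE 0.44), or 40.9-fold lower, was the fifth-lowest of all. Trem2, a lipid-sensing receptor of macrophages and microglia (chromosome 17, 48346401 to 48352276), was a weakly expressed gene here, with 94 and 113 counts in shNT and 36 and 23 in shGrhl3. The groups did not overlap, and the log2 fold change was -1.96 (SE 0.32), or 3.89-fold lower.

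Apoe encodes the lipoprotein ligand through which remnant particles are recognised by their receptors (chromosome 7, 19696244 to 19701310). It stood at 147.6 and 188 CPM in shNT and at 51.5 and 39.3 CPM in shGrhl3. The shNT libraries were both higher, and the level was 3.69-fold lower in shGrhl3 (log2 fold change -1.88, SE 0.14). In contrast to Cd36 and Msr1, a mean of 45.4 ± 8.65 CPM (SD, n = 2) remained. Lpl, the lipase that acts on the same particles outside the cell (chromosome 8, 68880555 to 68906932), differed little. It had 499 and 499.7 CPM in shNT and 402 and 406 CPM in shGrhl3. Its log2 fold change was -0.31 (SE 0.08), a small difference between closely matching replicates.

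The 3 fatty acid binding proteins, small carriers of one family, did not share a direction. Fabp4, the form of adipocytes, macrophages and capillary endothelium (chromosome 3, 10204342 to 10208616), stood at 5.85 and 9.13 CPM in shNT and at 1.5 and 0.857 CPM in shGrhl3. It was 6.19-fold lower (log2 fold change -2.63, SE 0.33), with no overlap. Fabp5, the epidermal and macrophage form (chromosome 3, 10012585 to 10016610), stood at 47.5 and 51.6 CPM in shNT and at 38.4 and 30.7 CPM in shGrhl3, a log2 fold change of -0.52 (SE 0.12), and -0.35 without shGrhl3 replicate 2. Fabp3, the heart and muscle form (chromosome 4, 130308738 to 130315463), was higher instead. Its values were 58.6 and 57.2 CPM in shNT and 82.9 and 65.4 CPM in shGrhl3 (log2 fold change 0.36, SE 0.11). The Fabp3 difference rested unevenly on the shGrhl3 libraries, being 0.18 on the log2 scale without shGrhl3 replicate 1 and 0.54 without replicate 2. The pseudogene Fabp3-ps1 had 4 and 10 counts in shNT and 17 and 15 in shGrhl3, and Fabp5l2 had 0 in every library, so few reads were assigned to those copies. The sources used here do not give how reads fitting several places were counted.

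The storage and efflux genes showed small differences. Plin2, the droplet coat protein (chromosome 4, 86626910 to 86670217), stood at 88.1 and 85.9 CPM in shNT and at 116 and 108 CPM in shGrhl3. The groups did not overlap, with the shGrhl3 libraries on top (log2 fold change 0.36, SE 0.09). Abca1, which loads cholesterol onto apolipoproteins (chromosome 4, 53030789 to 53159988), stood at 201 and 206 CPM in shNT and at 149 and 192 CPM in shGrhl3. The log2 fold change was -0.25 (SE 0.10), but -0.08 without shGrhl3 replicate 1 and -0.43 without replicate 2. Both shGrhl3 libraries lay below both shNT libraries, and the size of the Abca1 difference, though not its direction, depended on which of them was used.

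All 10 genes passed the filter on low counts. Of the 10, 7 were called lower and 2 (Plin2 and Fabp3) higher at an adjusted p of 0.05, beside 18.1% called lower and 17.2% called higher among all 15324 genes tested. Abca1 was not called. Those both called and at least 2-fold lower numbered 5 (Cd36, Msr1, Fabp4, Trem2 and Apoe; 4.27% of all tested genes), and neither of those called higher reached 2-fold (3.34%). Both shGrhl3 libraries lay below both shNT libraries for 8 genes (33.7% of all tested genes) and above them for 2 (32.8%). The median log2 fold change was -1.20 for the 10 genes and -0.01 for all tested genes. Because the contrast chose the genes, nothing is read from these counts.

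**Figure D2:**
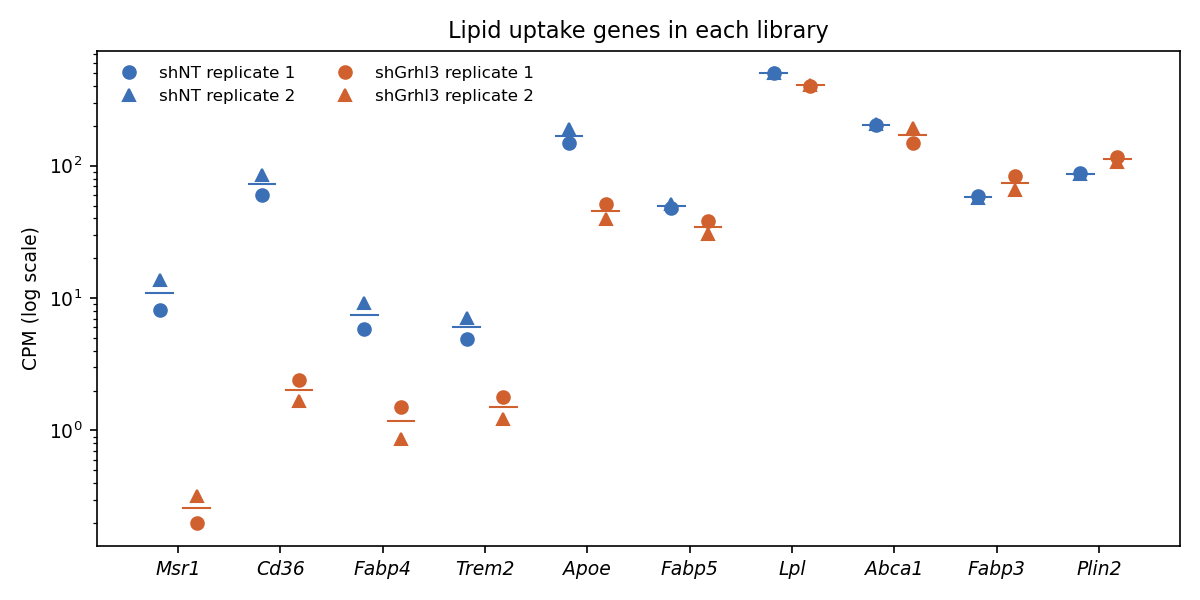
CPM of the 10 genes in each library on a log axis, with shNT in blue, shGrhl3 in orange, circles for replicate 1, triangles for replicate 2 and short bars for group means. Msr1 and Cd36 show the widest gaps between groups, whereas Lpl, Abca1, Fabp3, Fabp5 and Plin2 lie close together in the 2 groups.

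**Figure D3:**
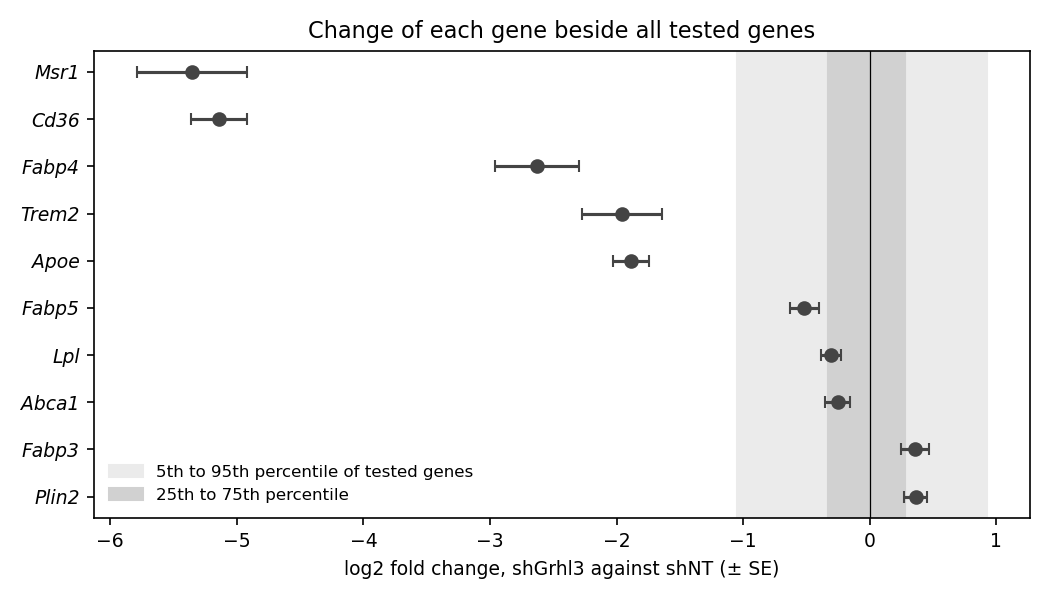
Log2 fold change of each gene, shGrhl3 against shNT, with its SE, over grey bands for the middle of all tested genes (5th to 95th percentile, -1.05 to 0.93, and 25th to 75th, -0.33 to 0.28). Msr1, Cd36, Fabp4, Trem2 and Apoe lie below the 5th percentile, and the other 5 genes lie within the wider band.

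A difference that the contrast did not use is that between the replicates of a group. The 5 most reduced genes were also the uneven ones among the shNT libraries, where shNT replicate 2 exceeded replicate 1 by 1.42-fold for Cd36, 1.28-fold for Apoe, 1.56-fold for Fabp4, 1.68-fold for Msr1 and 1.45-fold for Trem2. A ratio at least as large as that of Cd36 was seen in 7.04% of tested genes, and one at least as large as that of Apoe in 11.4%. For Lpl, Plin2, Fabp3, Fabp5 and Abca1 the same ratio lay between 0.975 and 1.08. Within shGrhl3, replicate 1 exceeded replicate 2 by 1.44-fold for Cd36, 1.31-fold for Apoe, 1.75-fold for Fabp4 and 1.46-fold for Trem2, whereas Msr1, on its few counts, had a ratio of 0.621. Of the other 5 genes, Fabp3 (1.27) and Fabp5 (1.25) were nearly as uneven there as Apoe, Abca1 was uneven in the opposite sense (0.776), and Plin2 (1.08) and Lpl (0.991) were close to even. These ratios are single comparisons of 2 libraries and have no replicate check.

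Macrophage markers moved with these genes. The summed level of 20 macrophage markers was 692 and 953 CPM in the shNT libraries and 158 and 127 CPM in the shGrhl3 libraries, a 5.78-fold ratio of the group sums and a 1.38-fold ratio of shNT replicate 2 to replicate 1. Of the 14 markers tested, 12 fell, Csf1r rose and Spi1 did not pass, with a median log2 fold change of -2.64 and a lowest value of -3.36, beside 18.1% lower and 17.2% higher among all tested genes. Lyz2 made up the largest part, at 454 and 645 CPM in shNT and 102 and 75.7 CPM in shGrhl3. Of the 20 markers, 16 were higher in shNT replicate 2 than in replicate 1, as were 7 of the 10 cardiac fibroblast markers. The 16 include the untested C1qa, C1qc, Fcgr1, Cx3cr1 and Aif1, with at most 11 counts in a library. Among all tested genes, 50.3% had a ratio at least as large as that of Lpl (1.00). No marker was at 0 in all 4 libraries. C1qb and C1qc, both too low to test, had no count in either shGrhl3 library. In shNT they had only 5 and 2 counts (C1qb) and 6 and 6 counts (C1qc). Csf1r, a defining receptor of the lineage, went the other way, from 7.26 and 7.24 CPM to 18.6 and 17.1 CPM. In bulk RNA, fewer cells of a type and less RNA per cell cannot be told apart, and the part of macrophage RNA in the lower Cd36, Msr1, Fabp4, Trem2 and Apoe was not tested. Of 14 endothelial markers, whose cells express Cd36 and Fabp4, the summed level was 143 and 140 CPM in shNT and 137 and 135 CPM in shGrhl3, with 1 higher, 3 lower and 9 not passing of 13 tested (30.8% called, beside 35.2% of all tested genes). Their median log2 fold change was -0.38. The sum stayed close because Flt1, the most abundant of them, was the riser (49.8 to 68.8 CPM). Adipocyte-defining Retn, Cfd and Car3 had no count in any library, and Adipoq had none in 3 of them, at 0.126 CPM in shNT replicate 2. The 10 adipocyte markers summed to 25.7 and 24.5 CPM in shNT and to 19.1 and 19.2 CPM in shGrhl3. Most of that was Slc2a4, the only 1 tested, which was called lower (24.4 ± 0.668 to 18.6 ± 0.128 CPM, adjusted p = 0.0193). The mural cell markers summed to 267 and 269 CPM in shNT and to 300.1 and 345 CPM in shGrhl3. Of 7 tested, 2 were higher (Cspg4 and Notch3), 0 lower and 5 did not pass (28.6% called). Their median log2 fold change was -0.16, so the higher sum came from those risers.

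**Figure D4:**
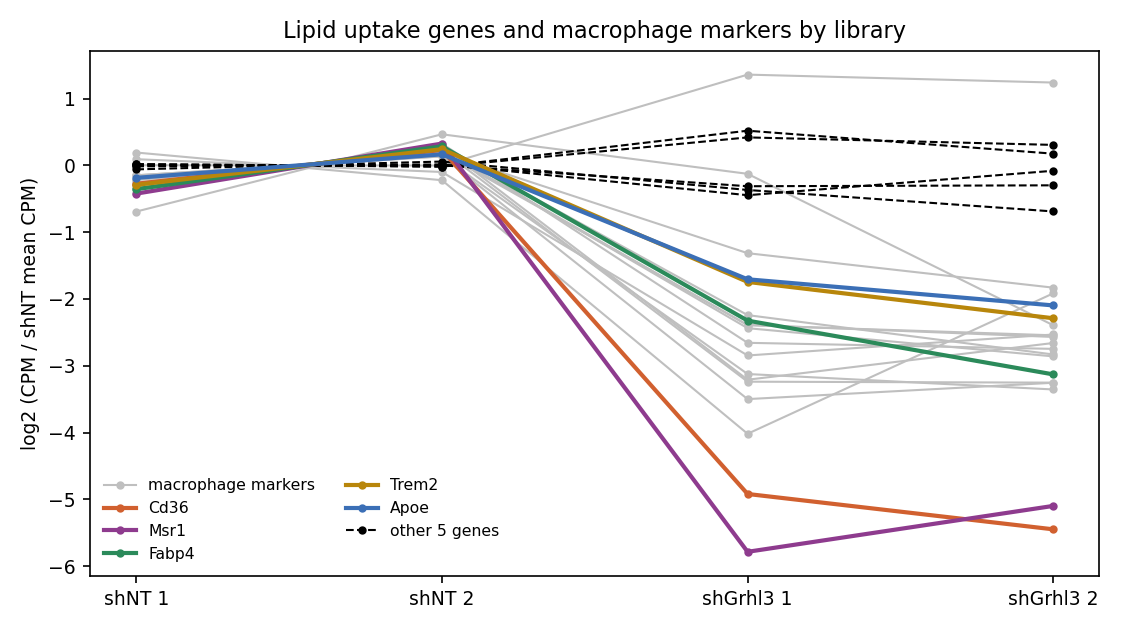
Log2 of CPM over the shNT mean in each library for the lipid uptake genes and, in grey, the 14 tested macrophage markers, with lines joining the 4 values of a gene. Cd36 and Msr1 lie below every marker in both shGrhl3 libraries, and Fabp4 runs among the markers. Apoe and Trem2 lie above most of the markers there, and the 5 dashed genes stay near 0.

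Genes with the pattern most like Cd36 over the 4 libraries were found by the Euclidean distance between centred log2 CPM values among 10861 genes. The nearest were Mmp8, a neutrophil collagenase (distance 1.39), Mmp12, the macrophage elastase (1.51), Pla2g7, a lipoprotein-associated phospholipase (1.58), Spp1, which encodes osteopontin (1.60), and Cybb, the NADPH oxidase subunit of phagocytes (1.88). Mmp8 averaged 16.4 ± 4.78 CPM for shNT against 1.11 ± 0.0541 CPM for shGrhl3 (SD, n = 2), and Pla2g7 averaged 18.5 ± 2.76 against 1.42 ± 0.181 CPM. Mmp12 and Spp1 differed by -4.41 and -3.61 on the log2 scale. A gene near Cd36 or Apoe by this measure has to be lower in shGrhl3, so these values are a description with no test. Apoe had closer companions, Tnfsf9 (0.232), Tro (0.274), Arl2bp (0.302), Gpm6b (0.305) and Map7d2 (0.319). Cybb, near Cd36, is on the list of 20 macrophage markers, and none of these 5 is. A list that short leaves out many macrophage genes, so nothing is read from this about Apoe. Tnfsf9 stood at 39.95 ± 1.30 and 10.5 ± 1.22 CPM in the 2 groups, and Gpm6b at 52.4 ± 1.68 and 14.7 ± 0.579 CPM.

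The neighbouring genes on the chromosome were read in the same way. Of the 20 nearest protein-coding neighbours on either side, 11 were tested, with 3 higher and 8 not passing, beside 17.2% higher among all tested genes. Tomm40, a mitochondrial import gene whose annotation begins 2 bases beyond that of Apoe, rose from 51.6 ± 6.22 to 69.6 ± 2.14 CPM (adjusted p = 0.00196, log2 fold change 0.44), a call lost without shNT replicate 1 (0.0996). Sema3c, the neighbour of Cd36 at a gap of 51421 bases, rose from 45.8 ± 4.77 to 74.6 ± 9.57 CPM, and Haus6, beside Plin2, from 21.9 ± 1.5 to 31.3 ± 1.27 CPM. Apoc1, next to Apoe and a companion of it in macrophages and liver, had 1 count in all 4 libraries together. Fabp9, Fabp12 and Pmp2, the family members beside Fabp4 and Fabp5, had almost no counts. Zcchc17 overlaps Fabp3, and without a stated strand setting their reads could be mixed there. Zcchc17 had a log2 fold change of 0.21 (SE 0.15, adjusted p = 0.291), and passed without shNT replicate 2 (0.0440) and without shGrhl3 replicate 2 (0.0222).

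The wider pathways were read from 10 lists that leave the 10 genes out, beside 35.2% of all tested genes called in either direction. Genes for fatty acid uptake and activation leaned lower, with 5 of 10 tested lower, 1 higher and 4 not passing (median log2 fold change -0.59). Dbi, the acyl-CoA binding protein, fell from 93.8 ± 7.46 to 42.6 ± 2.91 CPM (adjusted p = 6.38e-09), a log2 fold change of -1.14 (SE 0.10). Acsl5, an acyl-CoA synthetase, fell from 107 ± 9.53 to 69.5 ± 7.29 CPM and Slc27a1, the fatty acid transport protein of muscle, from 21.0 ± 3.69 to 10.9 ± 1.43 CPM. Acsl1, the main synthetase of heart, was the single riser (26.7 ± 0.809 to 37.4 ± 3.04 CPM).

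Lipoprotein receptors went the other way. The list of lipoprotein receptors and apolipoproteins had 8 higher, 2 lower and 3 not passing of 13 tested (median log2 fold change 0.50). Lrpap1, the receptor chaperone, rose from 143 ± 3.69 to 202 ± 2.96 CPM. The 2 fallers were Sort1, a sorting receptor (238 ± 18.4 to 99.9 ± 2.04 CPM), and Mylip, a ubiquitin ligase (16.2 ± 2.54 to 7.38 ± 0.982 CPM). Apoa5, Apoc2, Apoc3 and Apoc4 had no count in any library, which at a one-sided 95% level allows up to 3 counts in a library.

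Lipases and partners of lipoprotein lipase were split, with 3 of 14 tested higher, 4 lower and 7 not passing (median 0.17). Mgll, the monoglyceride lipase, rose from 19.4 ± 0.438 to 43.7 ± 4.96 CPM. Angptl4, an inhibitor of lipoprotein lipase, rose from 5.30 ± 1.5 to 8.66 ± 0.443 CPM, a call lost without shNT replicate 1, and Lipg, the endothelial lipase, from 5.03 ± 1.60 to 7.73 ± 0.563 CPM, lost without shNT replicate 2, without shGrhl3 replicate 1, with no expression filter and with DESeq2. Lipa, the lysosomal acid lipase, fell from 148 ± 4.83 to 91.5 ± 2.86 CPM, and Lipe, hormone-sensitive lipase, from 15.9 ± 0.921 to 9.85 ± 1.73 CPM. Lmf2, a relative of the lipase maturation factor, fell from 62.8 ± 7.62 to 45.1 ± 0.175 CPM, a call lost without shNT replicate 2. Gpihbp1, which anchors lipoprotein lipase to capillaries, had no count in any library.

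Storage genes apart from Plin2 were called at a share near that of all tested genes (30.8% beside 35.2%). Among the 13 tested there were 3 higher, 1 lower and 9 that did not pass (median 0.09). Cavin1 rose from 645 ± 26.9 to 786 ± 78.1 CPM, Fitm2 from 15.6 ± 1.95 to 20.9 ± 0.304 CPM and Plin4 from 2.51 ± 0.370 to 4.6 ± 1.07 CPM, and Lpin2, a phosphatidate phosphatase, fell from 69.8 ± 3.24 to 46.4 ± 5.53 CPM. The list had 2 calls with DESeq2 and 2 without shNT replicate 1, and the calls of Cavin1, Fitm2 and Plin4 were each lost without 2 of the 4 libraries in turn. Of the wider family of intracellular lipid binding proteins only 3 were tested, with 2 lower and 1 higher. Crabp1, a retinoid carrier, fell from 7.74 ± 1.34 to 3.40 ± 0.414 CPM, and Crabp2, another, rose at very low counts from 0.293 ± 0.325 to 2.02 ± 0.739 CPM.

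Genes of sterol efflux, esterification and lysosomal export had 9 of 23 tested lower, 3 higher and 11 not passing (median -0.20). Soat1, which esterifies cholesterol for storage, fell from 138 ± 2.07 to 76.5 ± 3.46 CPM (adjusted p = 9.27e-08), a log2 fold change of -0.85 (SE 0.09). Stard4, a sterol carrier, fell from 99.8 ± 7.76 to 52.6 ± 2.16 CPM, and Abca8a from 15.3 ± 1.28 to 4.46 ± 0.881 CPM. Its close paralog Abca8b rose from 19.5 ± 1.07 to 41.3 ± 2.40 CPM, and the sharing of reads between the 2 is uncertain. Pltp, the phospholipid transfer protein, rose from 22.05 ± 0.00808 to 59.0 ± 4.56 CPM. Soat2 rose at low level (0.624 ± 0.365 to 2.35 ± 0.921 CPM), a call lost without shNT replicate 1. Abcg1, the efflux partner of Abca1, did not pass (log2 fold change -0.33, adjusted p = 0.0860; chosen after its values were seen).

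Of 16 lipid-sensing nuclear receptors and sterol regulators, 6 rose, 2 fell and 8 did not pass (median 0.12). Pparg, a receptor of which Cd36, Fabp4 and Plin2 are known targets, rose from 2.13 ± 0.608 to 5.20 ± 0.296 CPM (adjusted p = 0.00160), a log2 fold change of 1.26 (SE 0.29). Ppargc1b, a coactivator of oxidative metabolism, rose from 2.66 ± 0.377 to 6.86 ± 0.672 CPM and Insig2, a brake on SREBP processing, from 49.4 ± 2.87 to 75.2 ± 5.88 CPM. Nr1h2, the LXR beta gene, fell from 56.0 ± 1.08 to 42.3 ± 6.28 CPM, lost without shGrhl3 replicate 2, and Nr1h4, the bile acid receptor, from 13.8 ± 0.0477 to 6.59 ± 0.693 CPM. The LXR alpha gene Nr1h3 (picked with its values in view) did not pass (14.3 ± 1.07 against 15.4 ± 1.46 CPM).

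Scavenger receptors and genes of TREM2 signalling had 8 of 18 tested lower, 2 higher and 8 not passing (median -0.53), beside the lower macrophage markers of the same libraries. Gpnmb, a glycoprotein of lipid-laden macrophages that other cells express too, fell from 1026 ± 91.3 to 493 ± 67.0 CPM (adjusted p = 2.55e-08), a log2 fold change of -1.06 (SE 0.09). Scarb2, a lysosomal membrane protein, fell from 652 ± 1.63 to 434 ± 2.23 CPM and Colec12, a scavenger collectin, from 130 ± 13.4 to 86.1 ± 2.22 CPM. Tyrobp, the adaptor through which TREM2 signals and a gene chosen after its values were seen, fell from 5.02 ± 0.296 to 1.63 ± 0.868 CPM. The 2 risers were Axl (928 ± 16.3 to 1070.0 ± 17.2 CPM) and Syk (36.0 ± 0.722 to 43.7 ± 0.322 CPM). The Axl call was lost with a replicate block (adjusted p = 0.0939) and without either shNT replicate. The Syk call was lost with the block (0.0759), with no expression filter, with DESeq2 and without each library in turn.

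Downstream, genes of mitochondrial fatty acid oxidation had 8 of 21 tested higher, 1 lower and 12 not passing (median 0.22). Acaa2, the thiolase of the pathway, rose from 90.2 ± 0.204 to 157 ± 0.511 CPM, whereas Cpt1a, the import enzyme and the single faller, went from 140 ± 2.38 to 89.5 ± 2.17 CPM. The oxidation list had 4 calls without shNT replicate 2. Cholesterol synthesis had 7 of 20 tested higher, 1 lower and 12 not passing (median 0.26). Hmgcs1, an early enzyme of the pathway, rose from 114 ± 2.64 to 152 ± 5.52 CPM, while Hsd17b7 fell from 34.8 ± 0.873 to 26.4 ± 3.04 CPM, a call lost without shNT replicate 1 and without shGrhl3 replicate 1.

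**Figure D5:**
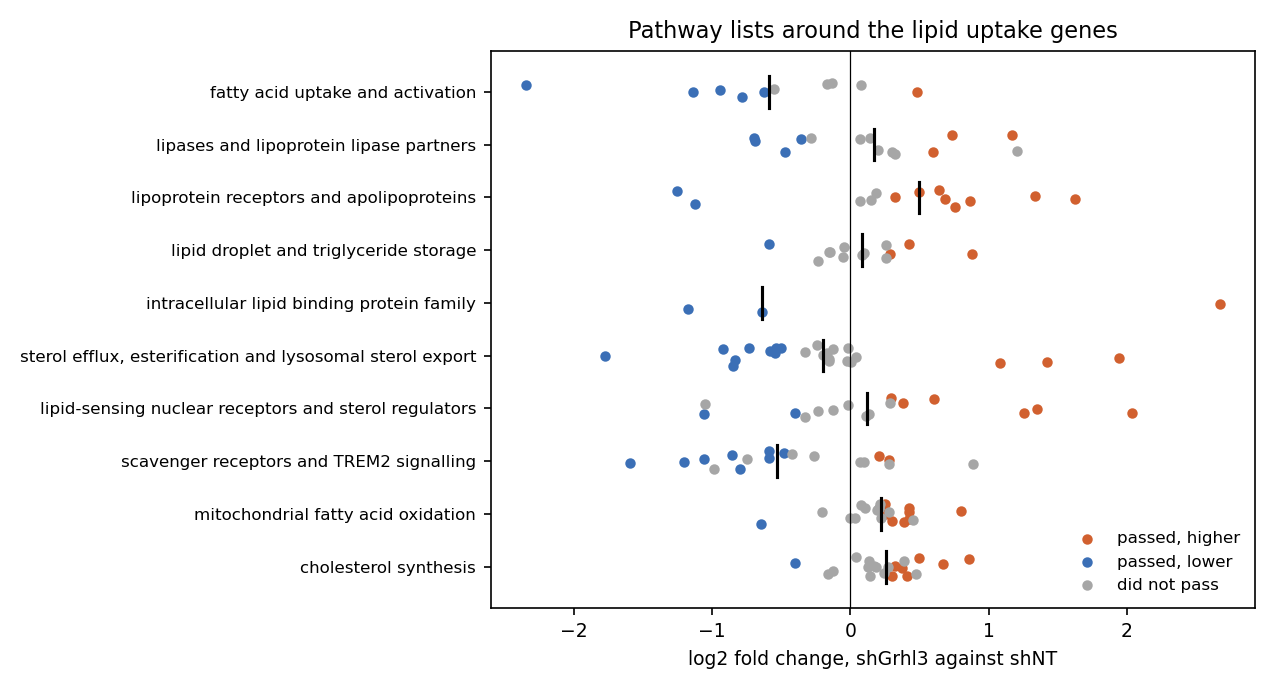
Log2 fold change, shGrhl3 against shNT, of every tested gene of the 10 pathway lists, with colour for the call at an adjusted p of 0.05 and a black bar for the median of a list. The medians run from -0.64 in the intracellular lipid binding family, with 3 tested genes, and -0.59 in fatty acid uptake and activation to 0.50 in lipoprotein receptors and apolipoproteins.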

How the data were processed

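RNA-seq was read for 2 shNT and 2 shGrhl3 libraries of induced cardiomyocytes. The 4 CUT&Tag samples (H3K27ac) are not analysed here. The authors deposited raw counts per gene. Tools listed, without roles, per the submitters' processing notes are HISAT2 2.0.1, cutadapt 1.9.1, ChIPseeker, MACS2 and Bowtie2 2.2.6, with the build mm10. The sources used here give no counting program, annotation or strand setting. Of 55359 rows, 1438 name no gene (0.00432% to 0.00872% of a library) and were left out.

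edgeR 4.0.16 in R 4.3.3 was used with filterByExpr (minimum count 10; 15324 genes), TMM scaling and the robust quasi-likelihood test, two-sided, Benjamini-Hochberg adjusted over all tested genes at a threshold of 0.05. SE values derive from the F statistic. The procedure was tested on simulated data. Replicates differed beyond sampling noise (chi-square per degree of freedom 14.1 and 8.66).

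Members and gene lists were chosen with earlier results of these data known. Named list genes are up to 3 per list and direction with the lowest p, besides neighbours, the 5 nearest patterns (mean log2 CPM of at least 2) and genes said to be chosen later. Alternatives included DESeq2 1.42.0 and limma-voom (limma 3.58.1). Gene positions and promoters are RefSeq's on GRCm38.p6. Some results of the gene lists are not reported here.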

Additional observations from a re-analysis of the deposited data

How the results depend on the processing

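Over the 13 alternatives no log2 fold change of the 10 lipid uptake genes changed sign. Cd36 ranged from -5.44 to -4.87, Apoe from -2.09 to -1.68, Msr1 from -5.70 to -4.95, Fabp4 from -3.10 to -2.28 and Trem2 from -2.26 to -1.69, whereas Abca1 ranged from -0.43 to -0.08 and Fabp3 from 0.18 to 0.54. With all 4 libraries kept, 7 to 8 of the 10 were called lower and 2 higher. Over all genes, 2141 to 2773 were called lower and 2093 to 2912 higher in those settings. Calls of the 10 genes also changed when 1 library was left out. Because the contrast chose the genes, nothing is read from these counts. With DESeq2's Wald test 2 genes of lipid droplet and triglyceride storage were called in place of 4, and leaving out 1 library at a time gave 2 to 4. The cause was not tested. For mitochondrial fatty acid oxidation, leaving out 1 library gave 4 to 10 calls in place of 9, with the low value without shNT replicate 2. Calls over all genes ran from 3832 to 5189 when 1 library was left out, with 1 sample then assumed to vary like the other group.

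Same-numbered libraries of the 2 groups showed no shared deviation (correlation -0.0605 over 15324 genes). This cannot tell whether they were prepared as pairs. A fit with a replicate block called 5043 genes in place of 5401, of which 2607 were lower and 2436 higher. Of the 10 lipid uptake genes, 8 were then called lower and 2 higher. Depth limits Msr1 in shGrhl3, at 4 and 6 counts, and Grhl3 itself.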
